A study of Mus musculus with 32 samples.

Results

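The genes described here encode complement proteins, clotting factors, fibrinolytic proteins and their inhibitors, most of which the liver makes and releases into plasma. They were chosen by gene symbol from a list of 41 such genes. The choice did not use their values, but earlier results of these data were known when it was made. A gene was measured where a probe of that symbol was detected on at least 8 arrays, and the brightest such probe stood for the gene. In all, 35 of the 41 genes were measured, of 8853 genes tested, and each of the 35 was detected on all 32 arrays. The remaining 6 (C3, Cfd, Cfp, C1r, C1s and Cpb2) are not analysed here. The mouse C1 proteases stood in the probe table under other symbols (C1ra, C1s1 and C1s2), and none of those 3 had an unadjusted p under 0.05 in any comparison (limma, smallest unadjusted p = 0.1002, for C1s1).

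Complement is a cascade of plasma proteases. It can be started by C1 bound to antibody, by the mannose-binding lectins with their proteases, or by the alternative pathway around factor B, and it ends in a membrane attack complex of C5 to C9 that perforates cells. Coagulation runs through a similar cascade of vitamin K dependent proteases to thrombin, which turns fibrinogen into fibrin, and plasmin, made from plasminogen, dissolves the clot again. Hepatocytes are the main source of most of these proteins, and several of them, fibrinogen among them, are known as acute phase proteins.

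Liver RNA came from female mice of the ApoE3Leiden strain, a transgenic model with a human APOE variant in which plasma cholesterol climbs on a cholesterol-rich diet. Every group was fed such a high-cholesterol diet (HC), so no liver without the transgene or on ordinary chow is used here. The 4 groups of 8 livers received the diet with rosuvastatin and ezetimibe together (HC+RSV+EZE), with ezetimibe (HC+EZE), with rosuvastatin (HC+RSV), or with no drug (HC). Rosuvastatin is an inhibitor of cholesterol synthesis and ezetimibe an inhibitor of cholesterol uptake from the gut. The age of the mice, the doses and the length of treatment are not given in the sources used here. Each liver was put on its own Illumina bead array. All values below are log2 intensities after background correction and quantile normalization, a difference is a difference of log2 intensities with the standard error (SE) of the fit, and levels of different probes are not set against each other.

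The promoters of 5 genes are shown because the results below turn on how these genes moved together from liver to liver. Fga, Fgb and Fgg encode the 3 chains of fibrinogen, lie within one cluster on chromosome 3 and are assembled into a single protein. F7 and F10 encode clotting factors VII and X and are direct neighbours on chromosome 8, where 1498 bases separate the end of F7 from the start of F10. Each sequence is the 250 bases before the start given in a RefSeq promoter table, build GRCm38.p6, 5′ to 3′ on the gene's strand, and capitals mark letters that matched one of the motifs named below. The windows lie at chr3:83025903-83026152 on the plus strand for Fga, chr3:83049864-83050113 on the minus strand for Fgb, chr3:83007474-83007723 on the plus strand for Fgg, chr8:13025784-13026033 on the plus strand for F7 and chr8:13037058-13037307 on the plus strand for F10. The start used for F7 lies 528 bases downstream of the 5′ end listed for the gene, so its window falls within the listed gene, and the other 4 starts coincide with the listed ends.
Fga: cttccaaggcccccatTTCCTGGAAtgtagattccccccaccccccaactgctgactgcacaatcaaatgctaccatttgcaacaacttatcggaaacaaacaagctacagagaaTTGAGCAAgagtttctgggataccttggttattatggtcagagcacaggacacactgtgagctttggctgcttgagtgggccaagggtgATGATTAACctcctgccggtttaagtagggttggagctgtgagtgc
Fgb: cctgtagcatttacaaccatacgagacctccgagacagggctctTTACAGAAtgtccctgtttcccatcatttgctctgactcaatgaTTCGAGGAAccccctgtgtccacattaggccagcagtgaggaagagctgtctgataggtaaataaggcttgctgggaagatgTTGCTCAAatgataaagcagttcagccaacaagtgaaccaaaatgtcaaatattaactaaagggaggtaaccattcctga
Fgg: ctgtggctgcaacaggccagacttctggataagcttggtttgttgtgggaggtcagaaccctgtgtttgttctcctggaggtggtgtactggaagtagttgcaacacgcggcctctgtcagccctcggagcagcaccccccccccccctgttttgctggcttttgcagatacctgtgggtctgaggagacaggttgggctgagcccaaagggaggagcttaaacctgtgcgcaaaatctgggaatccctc
F7: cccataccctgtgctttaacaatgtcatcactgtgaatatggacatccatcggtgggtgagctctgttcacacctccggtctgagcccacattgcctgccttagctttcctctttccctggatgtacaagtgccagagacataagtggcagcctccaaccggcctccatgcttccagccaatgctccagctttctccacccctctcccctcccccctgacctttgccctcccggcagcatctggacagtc
F10: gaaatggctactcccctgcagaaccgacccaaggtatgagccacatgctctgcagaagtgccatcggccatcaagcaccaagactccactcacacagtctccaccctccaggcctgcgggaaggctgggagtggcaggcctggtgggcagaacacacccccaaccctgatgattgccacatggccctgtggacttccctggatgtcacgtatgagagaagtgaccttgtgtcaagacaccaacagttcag

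The motif letters searched on both strands were TTNNGNAA for C/EBP, GTTAATNAT for a part of the HNF1 site, CAAAGTCCA for HNF4, TTCNNNGAA for STAT factors, CACGTG for the E-box and TTATGNAA for the D-box. Every D-box match is also a C/EBP match by these letters. In Fga they matched STAT 234 bases, C/EBP 135 bases and the HNF1 part site 46 bases before the start. In Fgb they matched C/EBP 206 and 80 bases and STAT 162 bases before the start. The windows of Fgg, F7 and F10 held no match to these letters. RefSeq promoters were at hand for 26 of the 35 measured genes, with 27 starts. The HNF1 letters were found in 4 of these 27 windows (14.8%; C4bp, F13b, Fga and Hc), beside 0.737% of 32851 mouse promoter windows of the same length. The STAT letters were found in 6 (22.2%; C8a, F9, Fga, Fgb, Masp2 and Pros1), beside 7.02% of all, and the C/EBP letters in 12 (44.4%), beside 36.8% of all. The D-box letters were found in 2 (7.41%; C4bp and C9), beside 3.07% of all, and the HNF4 and E-box letters in 0, beside 0.384% and 6.02% of all. These matches describe letters and not bound sites.

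The mean intensity of an array before normalization ranged from 126.1 to 279.9, with 10724 to 13444 detected probes. The 8 hepatocyte markers fixed for the check of the tissue were all measured, at a mean log2 level per array of 11.77 to 12.41 in HC+RSV+EZE, 12.04 to 12.41 in HC+EZE, 11.97 to 12.45 in HC+RSV and 11.81 to 12.36 in HC. The 6 chips each held arrays of every group. The position of an array on its chip cannot be told apart from ezetimibe: livers given it lay at positions F to H and livers without it at positions A to C. On each chip statin livers also lay after those without the statin, both among livers with ezetimibe and among livers without it. HC lay at A or B, HC+RSV at B or C, HC+EZE at F or G and HC+RSV+EZE at G or H. The statin comparisons are thus not free of position either. In 4 arrays the mean correlation with all other arrays was lowest, 0.925 to 0.951 against 0.96 to 0.972 in the other 28. These were HC+EZE replicate 1, HC+RSV replicate 3 and HC replicates 1 and 8, so 2 belonged to HC and none to HC+RSV+EZE. Results that rest on them are given with and without them. Since these are bulk livers, fewer cells of a type and less RNA per cell cannot be told apart.

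**Figure D1:**
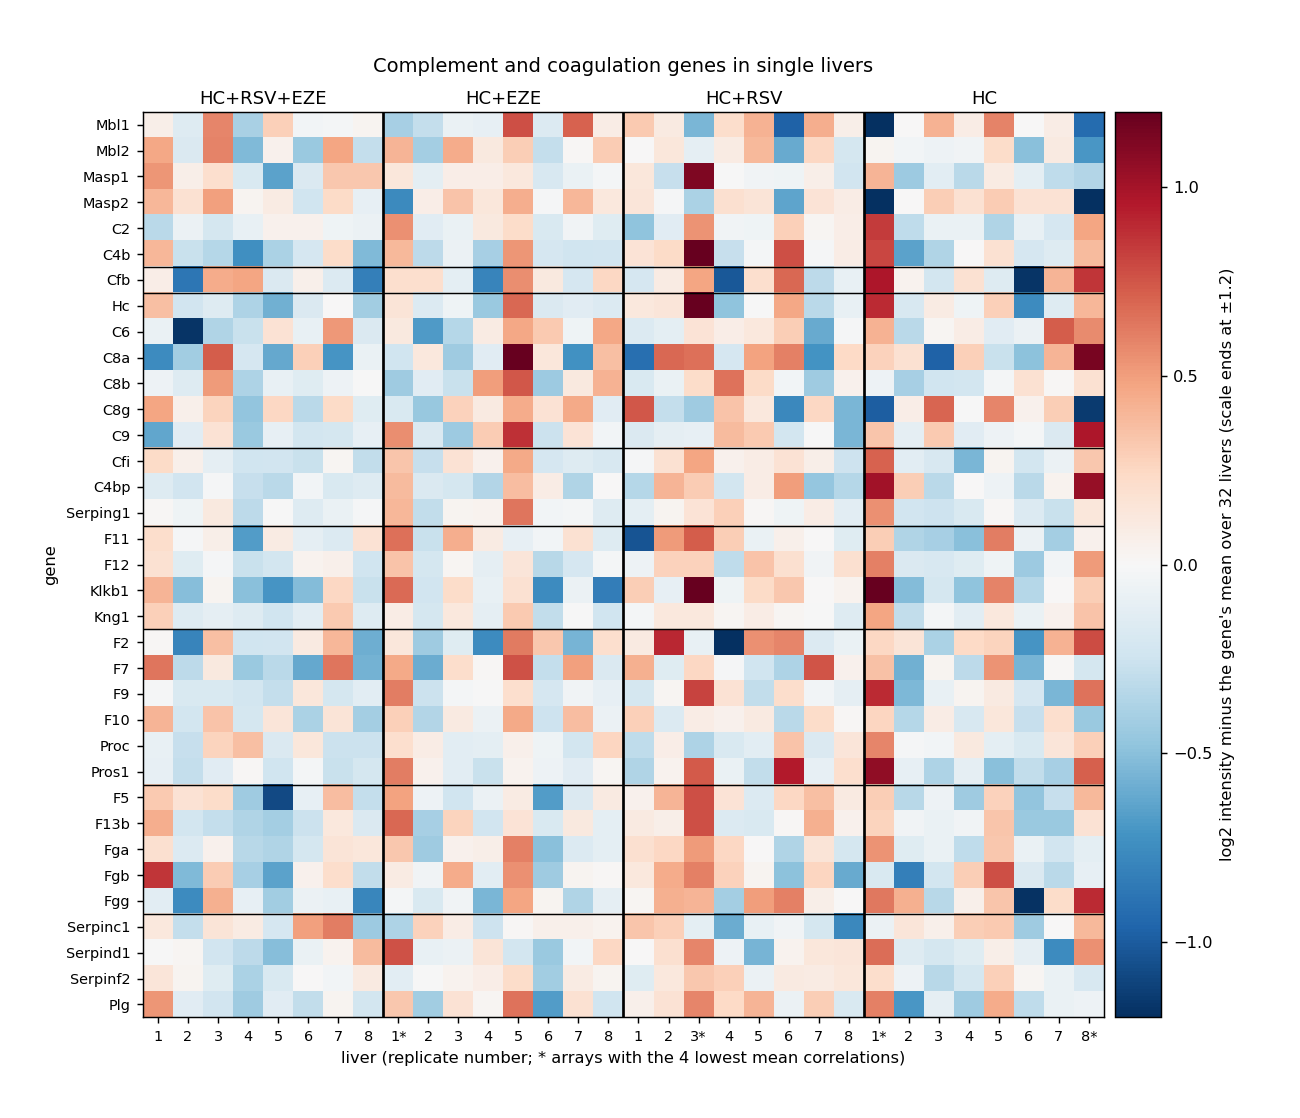
Log2 intensity of the 35 genes minus each gene's mean over the 32 livers, with genes in rows by role (black lines) and livers in columns by group, from red (higher) to blue (lower). HC+EZE replicate 5, HC+RSV replicate 3 and HC replicate 1 are high in most rows, while Mbl1, Masp2 and C8g are low in the asterisked HC livers.

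Single livers differed more than the groups did. The mean of the 35 genes in a liver, each taken as its log2 distance from its own mean over all livers, had a lowest, median and highest value of -0.268, -0.157 and 0.156 in HC+RSV+EZE. It had -0.2, -0.013 and 0.403 in HC+EZE, -0.086, 0.043 and 0.39 in HC+RSV, and -0.288, -0.068 and 0.369 in HC. All 4 groups overlapped. In HC+EZE replicate 5, the liver with the highest mean, 33 of the 35 genes were above their own mean, and that array was not among the 4 that stood apart.

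Within groups the median gene of the set had a residual SD of 0.358, beside 0.311 for all genes tested and 0.345 for the 3242 genes at least as bright as the dimmest of the 35. Group membership took up a median of 7.4% of a gene's variance in the set and 7.4% over all genes. The largest residual SD was that of C8a, the alpha chain of complement C8, with 0.6. C8a had 6.71, 7.16 and 8.19 as lowest, median and highest log2 level in HC+RSV+EZE, 6.74, 7.46 and 8.71 in HC+EZE, 6.56, 7.83 and 8.15 in HC+RSV and 6.49, 7.69 and 8.6 in HC. Its levels overlapped in all groups. Cfb, factor B of the alternative pathway, followed with a residual SD of 0.539. Its lowest, median and highest levels were 8.94, 9.76 and 10.28 in HC+RSV+EZE, 9.02, 9.97 and 10.37 in HC+EZE, 8.79, 9.81 and 10.5 in HC+RSV and 8.63, 9.92 and 10.78 in HC. F2, prothrombin, had a residual SD of 0.513. Its levels were 9.72, 10.41 and 10.91 in HC+RSV+EZE, 9.76, 10.51 and 11.14 in HC+EZE, 9.25, 10.53 and 11.42 in HC+RSV and 9.81, 10.75 and 11.3 in HC. For Cfb and F2 too, every group spanned the medians of the others.

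The steadiest genes of the set were Serpinf2, Kng1 and Serping1. Serpinf2, the plasmin inhibitor alpha2-antiplasmin, had a residual SD of 0.185, below all but 3.1% of genes tested. Its lowest, median and highest levels were 11.82, 12.19 and 12.35 in HC+RSV+EZE, 11.78, 12.23 and 12.42 in HC+EZE, 12.06, 12.32 and 12.52 in HC+RSV and 11.87, 12.13 and 12.49 in HC. Kng1, kininogen, the source of bradykinin, had a residual SD of 0.202. Its levels were 14.14, 14.23 and 14.69 in HC+RSV+EZE, 14.08, 14.32 and 14.69 in HC+EZE, 14.22, 14.4 and 14.5 in HC+RSV and 14.08, 14.39 and 14.85 in HC, near the top of the scale of these arrays. Serping1, the C1 inhibitor, had a residual SD of 0.227. Its levels were 12.26, 12.55 and 12.69 in HC+RSV+EZE, 12.28, 12.58 and 13.22 in HC+EZE, 12.45, 12.6 and 12.86 in HC+RSV and 12.31, 12.4 and 13.13 in HC.

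The comparison of HC+RSV with HC bears on the statin alone. No gene of the set passed the test (limma, adjusted p under 0.05 after Benjamini-Hochberg adjustment over 8853 genes), where 0% of all genes did. At an unadjusted p under 0.05 there were 0 of the 35 as well, against 2.68% of all genes. The set leaned upward: 26 of 35 differences were above 0, with a median of 0.107, beside 50.3% of all genes and a median of 0.001. Without HC+RSV replicate 3 it was 22 of 35 and a median of 0.049. All 6 measured genes of the first steps of the classical and lectin pathways and all 5 of the cofactor and fibrin group were above 0, with medians of 0.141 and 0.172. The highest difference was that of F5, factor V, the cofactor that speeds the making of thrombin, at 0.32 ± 0.18 (SE, 8 livers per group; limma, adjusted p = 0.9998). F5 had 7.85, 8.22 and 8.79 in HC+RSV and 7.54, 7.84 and 8.4 in HC as lowest, median and highest level. The lowest difference was that of Serpinc1, antithrombin, the main inhibitor of thrombin and factor Xa, at -0.239 ± 0.156 (limma, adjusted p = 0.9998). Serpinc1 had 7.46, 8.13 and 8.57 in HC+RSV and 7.81, 8.34 and 8.62 in HC. Both pairs of groups overlapped. Without HC+RSV replicate 8 the Serpinc1 difference was -0.15. A second Serpinc1 probe of nearly the same brightness had an r of 0.112 with the one used over the arrays, and a difference of -0.141 here.

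**Figure D2:**
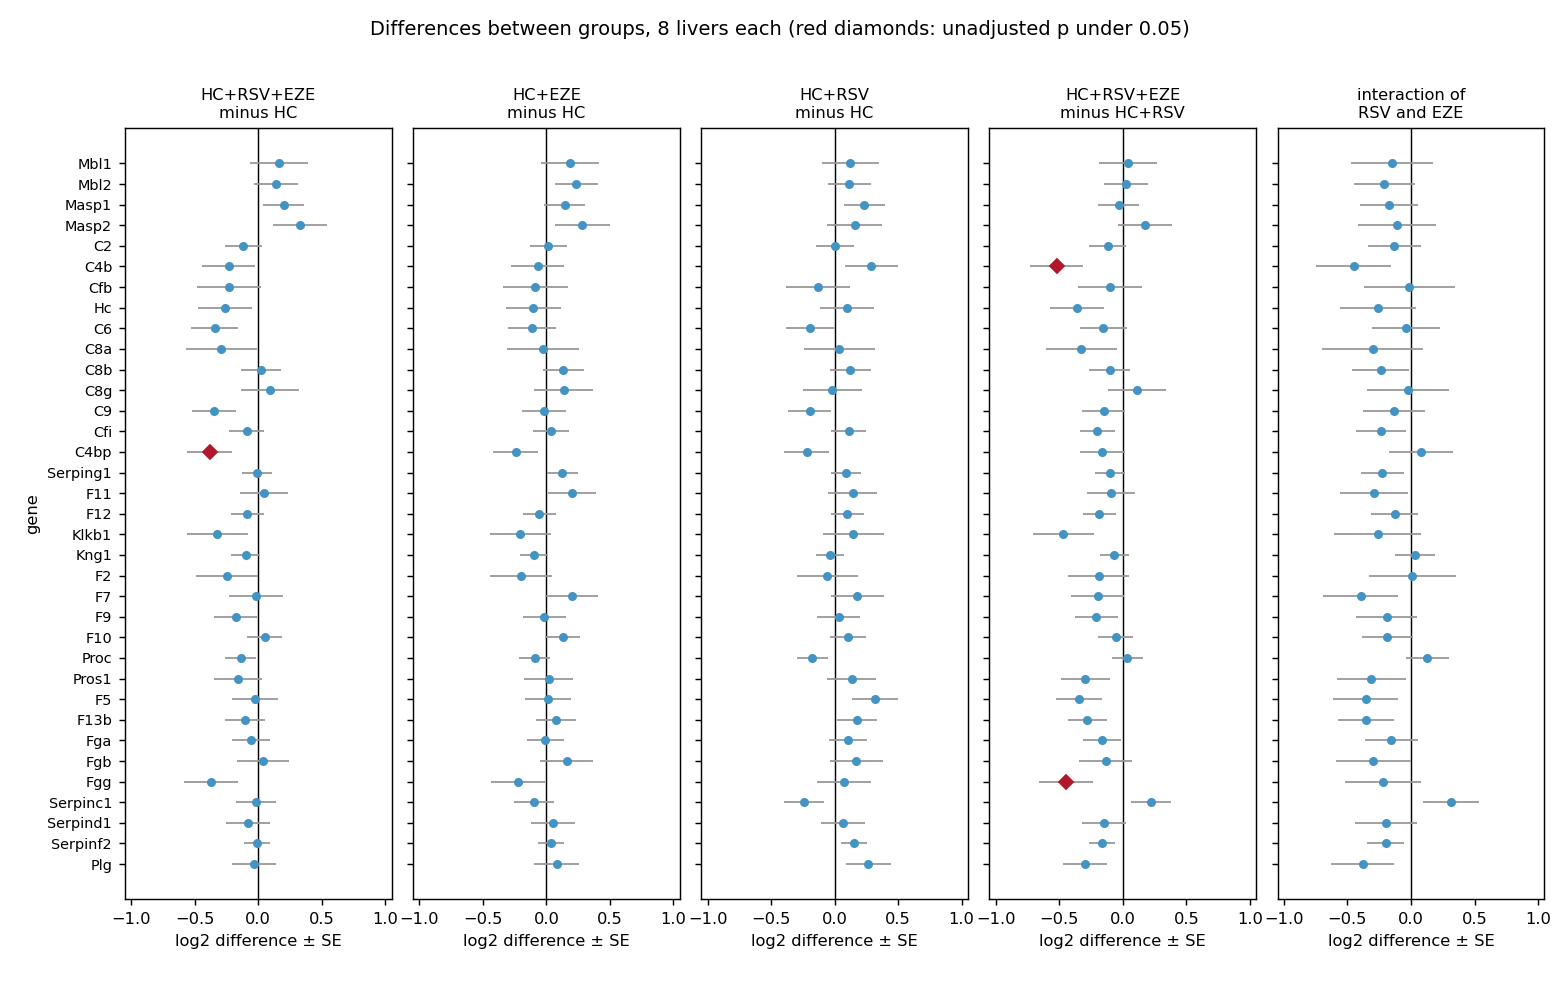
Log2 difference of each gene with its SE in 5 comparisons, tested over 8 livers per group, with 0 as a black line. Red diamonds mark an unadjusted p under 0.05: C4bp between HC+RSV+EZE and HC, and C4b and Fgg between HC+RSV+EZE and HC+RSV. In the panels for HC+RSV+EZE minus HC+RSV and for the interaction most points lie left of 0.

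The comparison of HC+EZE with HC bears on ezetimibe alone. Of the 35 genes 0 passed, against 0.0452% of all genes, and 0 had an unadjusted p under 0.05, against 3.64%. There were 19 differences above 0 and 16 below, with a median of 0.014, beside a median of -0.002 over all genes. Single arrays decided the sign of that median, which ran from -0.053 without HC+EZE replicate 1 to 0.075 without HC replicate 8. The highest was that of Masp2, a protease that binds mannose-binding lectins and cleaves C4, at 0.284 ± 0.214 (limma, adjusted p = 0.9995). Masp2 had 9.81, 10.7 and 11.01 in HC+EZE and 9.12, 10.75 and 10.88 in HC. The 2 lowest HC values, 9.12 and 9.36, were those of replicates 8 and 1, and without the 4 arrays that stood apart Masp2 differed by 0.025. Another Masp2 probe had an r of -0.237 with the one used. The lowest difference was that of C4bp, which encodes C4b-binding protein, an inhibitor of the classical and lectin pathways, at -0.243 ± 0.178 (limma, adjusted p = 0.9995), and -0.03 without the 4 arrays.

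With both drugs against the diet alone, 0 of the 35 genes passed, against 0.0452% of all genes, and 1 had an unadjusted p under 0.05, against 7.46% of all genes. Of the 35 differences 26 were below 0, with a median of -0.085, beside a median of -0.008 over all genes. This rested on HC livers that stood apart. Without HC replicate 1 there were 17 below 0 and a median of 0.001, and without the 4 arrays 14 below 0 and a median of 0.017. The gene with an unadjusted p under 0.05 was C4bp, and it had the lowest difference too. Its levels in the 8 HC+RSV+EZE livers were close together, with 10.02, 10.17 and 10.33 as lowest, median and highest. They were 9.98, 10.26 and 10.72 in HC+EZE, 9.88, 10.27 and 10.84 in HC+RSV, and 10.02, 10.36 and 11.39 in HC. The HC+RSV+EZE values all lay within the HC range, and the 2 highest HC livers, at 11.35 and 11.39, were replicates 1 and 8. C4bp differed by -0.381 ± 0.178 (0.768-fold; limma, unadjusted p = 0.0398, adjusted p = 0.65) and by -0.277 ± 0.16 with chip as a block. Without the 4 arrays that stood apart it differed by -0.109, so this value rests on those HC livers.

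**Figure D3:**
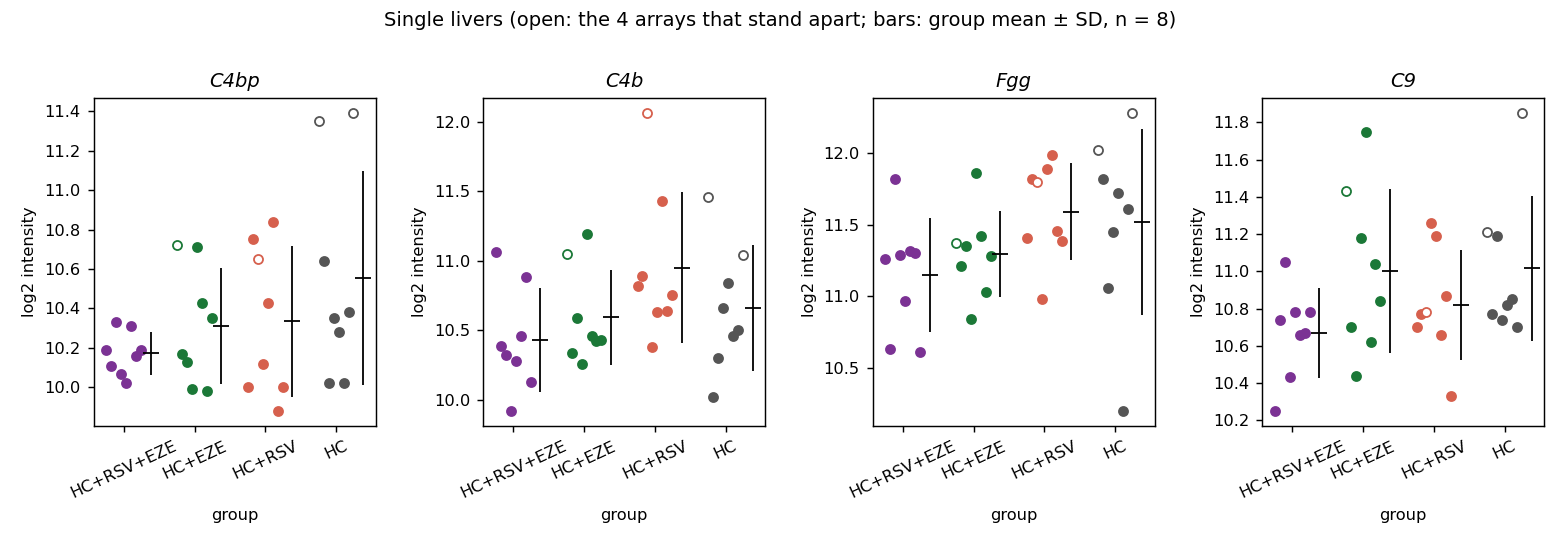
Log2 intensity of C4bp, C4b, Fgg and C9 in single livers by group, with the group mean ± SD (n = 8) beside the points and open circles for the 4 arrays that stood apart. The 2 highest C4bp values in HC, 11.35 and 11.39, and the highest C4b value in HC+RSV, 12.06, are open circles.

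The highest difference between HC+RSV+EZE and HC was again that of Masp2, at 0.331 ± 0.214 (limma, adjusted p = 0.7056). Masp2 had 10.34, 10.72 and 11.07 in HC+RSV+EZE, and without the 4 arrays its difference turned to -0.05. With all arrays the second Masp2 probe differed by 0.06 ± 0.252 and the dimmer one by -0.178 ± 0.243. By role and with all arrays, the membrane attack genes had a median of -0.276, from -0.347 (C9) to 0.094 (C8g), and the 6 vitamin K dependent factors a median of -0.149. The first steps of the classical and lectin pathways had a median of 0.154, from -0.231 (C4b) to 0.331. The 4 serpins and fibrinolytic genes lay between -0.078 (Serpind1) and -0.011 (Serpinf2). None of these passed the test.

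Between HC+RSV+EZE and HC+RSV, which differ by ezetimibe on top of the statin, 29 of 35 differences were below 0, with a median of -0.152, beside a median of -0.002 over all genes. It was also 29 of 35 without the 4 arrays and without HC+RSV replicate 3 alone, with a median of -0.106 in both cases. Of the 35 genes 0 passed, against 0.0565% of all genes, and 2 had an unadjusted p under 0.05, against 7.33% of all genes. Without HC+RSV replicate 3 the latter count was 0 (limma), beside 387 of 8853 genes. The lowest was C4b, complement component C4, whose cleavage opens the classical and lectin pathways. C4b had 9.92, 10.36 and 11.06 in HC+RSV+EZE, 10.26, 10.44 and 11.19 in HC+EZE, 10.38, 10.79 and 12.06 in HC+RSV and 10.02, 10.58 and 11.46 in HC. Of the HC+RSV+EZE livers 4 lay below the lowest HC+RSV liver. The difference was -0.52 ± 0.208 (0.697-fold; limma, unadjusted p = 0.01719, adjusted p = 0.6039). The fit with a chip block gave -0.575 ± 0.186 (limma, adjusted p = 0.1685). It was below 0 within 6 of 6 chips, from -1.517 to -0.119. Without HC+RSV replicate 3, one of the 4 arrays that stood apart, it was -0.361. C4b has a near-identical copy, C4a, so a probe may read both.

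The other was Fgg, the fibrinogen gamma chain. Fgg had 10.61, 11.27 and 11.82 in HC+RSV+EZE, 10.84, 11.32 and 11.86 in HC+EZE, 10.98, 11.63 and 11.99 in HC+RSV and 10.2, 11.67 and 12.28 in HC. Of the HC+RSV+EZE livers 3 lay below every HC+RSV liver. Its difference was -0.445 ± 0.211 (0.735-fold; limma, unadjusted p = 0.04292, adjusted p = 0.6809). The fit with a chip block gave -0.399 ± 0.121 (limma, adjusted p = 0.1439). It was below 0 within 6 of 6 chips, from -0.708 to -0.067, and -0.415 without the 4 arrays. Without HC+RSV replicate 3 the unadjusted p of Fgg was not under 0.05 (limma). The highest difference was that of Serpinc1, at 0.221 ± 0.156 (limma, adjusted p = 0.7618), with 7.8, 8.35 and 8.85 in HC+RSV+EZE against 7.46, 8.13 and 8.57 in HC+RSV. Without HC+RSV replicate 8 it was 0.132, and the second Serpinc1 probe differed in the opposite direction, by -0.205 ± 0.154. All 5 cofactor and fibrin genes and all 4 contact system genes were below 0, with medians of -0.28 and -0.139.

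With chip as a block, 9 of the 35 genes had an unadjusted p under 0.05 in this comparison, all with differences below 0, beside 14.3% of all genes in that fit (7.33% without the block). Of the 35 genes 0 had an adjusted p under 0.05, beside 0.531% of all genes. Beside C4b and Fgg these were Klkb1, plasma prekallikrein, with -0.572 ± 0.188, Plg, plasminogen, with -0.367 ± 0.125, and F5 with -0.395 ± 0.179. The others were Hc, complement C5, with -0.396 ± 0.18, F13b, the carrier subunit of factor XIII, with -0.31 ± 0.127, Cfi, the protease that degrades C4b and C3b, with -0.261 ± 0.121, and Serpinf2 with -0.217 ± 0.092. The smallest adjusted p among the 9 was 0.1439 and the largest 0.3209 (limma with chip as a block). When the 4 arrays were left out as well, Klkb1 alone passed, at -0.536 ± 0.12 (adjusted p = 0.02063), in a fit that called 1.34% of all genes. With all arrays and no block Klkb1 differed by -0.468 ± 0.24 (unadjusted p = 0.05964, adjusted p = 0.7015). Klkb1 had 8.5, 8.82 and 9.62 in HC+RSV+EZE and 9.11, 9.34 and 10.41 in HC+RSV. Without the 4 arrays and with the block, other comparisons moved too, by counts at an unadjusted p under 0.05 (limma). Between HC+RSV and HC it was 10 of the 35, all above 0, beside 803 of 8853 genes. For the interaction it was 9, all below 0, beside 630, and between HC+EZE and HC+RSV 5, all below 0, beside 913. Between HC+RSV+EZE and HC+RSV it was 10, all below 0, beside 1350. The remaining comparisons had fewer.

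Between HC+RSV+EZE and HC+EZE, which differ by the statin on top of ezetimibe, 32 of 35 differences were below 0, with a median of -0.122, beside a median of -0.002 over all genes. The median was -0.057 without HC+EZE replicate 5, and -0.076 without HC+EZE replicate 1 as without the 4 arrays. They were small: 0 of the 35 passed, as did 0% of all genes, and 0 had an unadjusted p under 0.05, against 1.71% of all genes. The lowest was that of C9, the pore-forming component of the membrane attack complex, at -0.33 ± 0.172 (limma, adjusted p = 1). C9 had 10.25, 10.71 and 11.05 in HC+RSV+EZE and 10.44, 10.94 and 11.75 in HC+EZE. The highest was that of Serpinc1, at 0.078 ± 0.156, and 0.001 without HC+RSV+EZE replicate 7, with -0.145 ± 0.154 for its second probe. Between HC+EZE and HC+RSV 15 differences were above 0 and 20 below, with a median of -0.024 (0.029 without HC+RSV replicate 3). Here 0 passed, against 0.0339% of all genes, and 0 had an unadjusted p under 0.05, against 4.52%. The lowest was that of C4b, at -0.357 ± 0.208 (-0.198 without HC+RSV replicate 3), and the highest that of C9, at 0.179 ± 0.172 (0.072 without HC+EZE replicate 5).

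The interaction of the drugs compares the statin's difference in the presence of ezetimibe with its difference in the absence of ezetimibe. For the 35 genes it was below 0 in 30 and above 0 in 5, with a median of -0.197, beside a median of -0.001 over all genes. Of the 35 genes 0 passed, as did 0% of all genes, and 0 had an unadjusted p under 0.05, against 1.72% of all genes. All 6 genes of the first pathway steps, all 6 membrane attack genes and all 5 of the cofactor and fibrin group were below 0. The lowest value was that of C4b, at -0.452 ± 0.294 (limma, adjusted p = 1; -0.293 without HC+RSV replicate 3), and the highest that of Serpinc1, at 0.317 ± 0.22. The second Serpinc1 probe gave -0.004 ± 0.217, so that highest value rests on 1 of 2 probes that disagree. The genes of the set covary from liver to liver, as described below, so these counts of signs are not counts of independent observations, and the comparisons share groups.

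Averaged over the statin, ezetimibe had 1 gene with an unadjusted p under 0.05, against 9.47% of all genes, and 0 that passed, against 0.339%. That gene was Fgg, with -0.335 ± 0.15 (limma, unadjusted p = 0.03185, adjusted p = 0.4589), and -0.22 without the 4 arrays. The median of the set was -0.083 (-0.047 without HC replicate 1 and -0.01 without the 4 arrays). Klkb1 was lowest at -0.337 ± 0.17 (-0.197 without the 4 arrays) and Masp2 highest at 0.229 ± 0.152 (0.075 without the 4 arrays). The second Masp2 probe differed by 0.03 ± 0.178 and the dimmer one by -0.214 ± 0.172. Averaged over ezetimibe, rosuvastatin had 1 gene with an unadjusted p under 0.05, against 2.37% of all genes, and 0 that passed, as did 0% of all genes. That gene was C9. Its lowest, median and highest levels were 10.33, 10.77 and 11.26 in HC+RSV and 10.7, 10.84 and 11.85 in HC, beside those with ezetimibe given above. C9 differed by -0.263 ± 0.121 (0.833-fold; limma, unadjusted p = 0.03711, adjusted p = 0.9999). The difference was below 0 within 6 of 6 chips, from -0.427 to -0.007, and -0.144 without the 4 arrays. The other kept probes of C9 had an r of 0.403 and 0.45 with the one used. The median of the set was -0.018, and 0.038 without the 4 arrays. Masp1, another protease of the lectin pathway, was highest at 0.144 ± 0.114, and 0.07 without HC+RSV replicate 3.

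The chip on which a liver was measured went with larger differences than the drugs. In a test chosen after the data were seen, 17 of the 35 genes differed between chips beside the group means (limma F test, adjusted p under 0.05), which is 48.6%, against 27.2% of all genes. Without the 4 arrays it was 27 of 35 (77.1%), against 41.7%. Chip took up a median of 38.4% of the variance of the set's genes and 27.4% of that of all genes. Whether the chips differ by processing or by which mice they held was not tested.

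The genes that differed most between chips did not share a single layout. Cfb, with 82.8% of its variance between chips (adjusted p = 1.413e-06), had 8.63 to 9.02 on chip 2, against 10.01 to 10.78 on chip 4 and 9.85 to 10.67 on chip 5, with no overlap. Fgg (71.5%) had 10.2 to 10.98 on chip 2, against 11.61 to 12.02 on chip 4. F2 (67.5%) had 9.25 to 9.93 on chip 2, against 10.76 to 11.14 on chip 4. By chip mean, all 3 were lowest on chip 2 and highest on chip 4.

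F10 (78.8%) had 11 to 11.23 on chip 5, against 11.55 to 11.9 on chip 4 and 11.53 to 11.85 on chip 1. F7 (60.7%) had 7.75 to 8.12 on chip 5, against 8.54 to 8.97 on chip 1. Plg (53.4%) had 11.14 to 11.78 on chip 5, against 11.87 to 12.42 on chip 1. By chip mean relative to the group means, these 3 were lowest on chip 5, at -0.3 for F10, -0.36 for F7 and -0.37 for Plg, where Cfb, Fgg and F2 were above 0, at 0.42, 0.35 and 0.3. All 6 were above 0 on chip 4 and below 0 on chip 2, there by more for Cfb, Fgg and F2. The layouts also parted on chips 3 and 6. On chip 3 F10, F7 and Plg were above 0, at 0.22, 0.27 and 0.07. There Cfb, Fgg and F2 were below 0, at -0.15, -0.19 and -0.18. On chip 6 F10, F7 and Plg were below 0, at -0.21, -0.33 and -0.26, where Cfb, Fgg and F2 had 0.12, 0 and 0.16. Mbl2 (55.7%) and Fgb (52.7%) were lowest on chip 5 as well. C8a (66.1%) was lowest on chip 3, at -0.72, and highest on chip 4, at 0.62. Proc (57.7%) was lowest on chip 2, at -0.2, and highest on chip 4, at 0.17. The other kept Proc probe had an r of -0.088 with the one used. F9, factor IX, and C2, the serine protease of the classical C3 convertase, did not pass, with 3.6% and 4.9% of their variance between chips (adjusted p = 0.9418 and 0.9541).

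**Figure D4:**
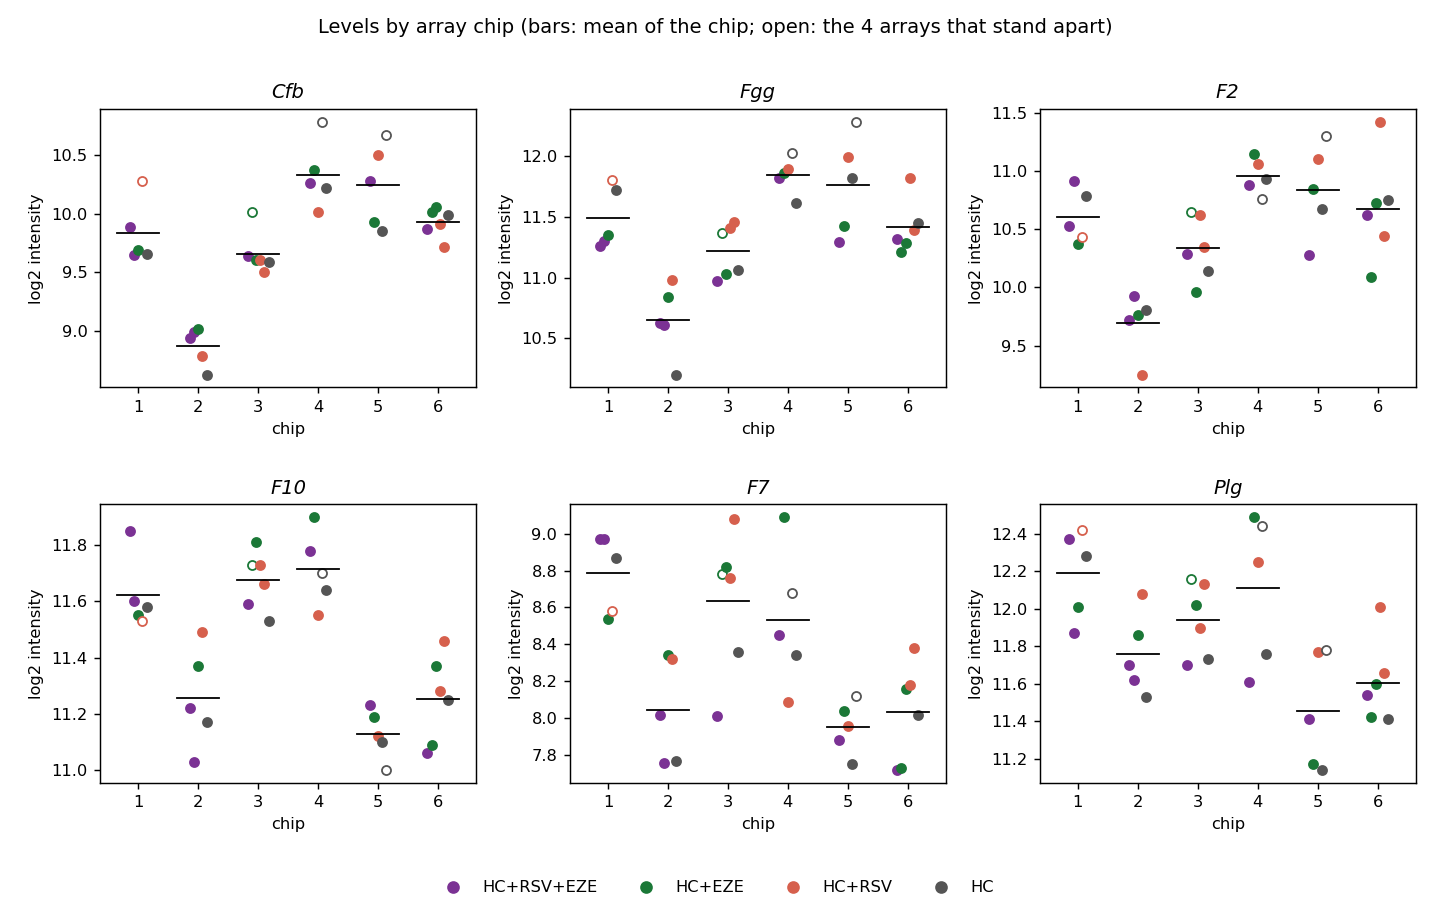
Log2 intensity of 6 genes by chip, with livers coloured by group, a bar at the mean of each chip and open circles for the 4 arrays that stood apart. Cfb, Fgg and F2 are lowest on chip 2, and F10, F7 and Plg are lowest on chip 5, and the chip mean of all 6 is high on chip 4.

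The 4 arrays that stood apart differed in single genes of the set, as a description of those arrays, since the correlation that singled them out used these genes too. C2 had 11.08 in HC+EZE replicate 1, 11.07 in HC+RSV replicate 3 and 11.37 and 11.01 in HC replicates 1 and 8, all above the highest of the other 28 livers, 10.82. F9 had 12.22 in the HC+EZE liver, 12.42 in the HC+RSV liver and 12.5 and 12.26 in the HC livers, above 11.82. Serpind1, heparin cofactor II, had 11.64, 11.46, 11.55 and 11.43 in the same order of livers, above 11.26. Thus C2, F9 and Serpind1 were higher in each of these arrays than in any other. In all, 20 of the 35 genes (57.1%) were above the median of the other 28 livers in all 4 arrays, against 27% of all genes. Only Mbl1, C8g and Masp2 (8.57%) were below it in all 4, against 21.5% of all genes. Masp2 had 9.81 in the HC+EZE liver, 10.2 in the HC+RSV liver and 9.36 and 9.12 in the HC livers, with a lowest value of 9.94 in the other 28.

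Partners in one protein or complex, or close relatives, were compared over the 32 livers after group means were removed. The 12 pairs were taken for their known biology, with earlier results of these data known. Permutation p-values (100000 resamples, two-sided) were adjusted by Benjamini-Hochberg over the 12. The smallest p these permutations can give is 1e-05. C4bp and Pros1, protein S, which circulates in part bound to C4b-binding protein, had a Pearson r of 0.803 and a Spearman rho of 0.709 (permutation p = 1e-05 and 5e-05, adjusted p = 6e-05 and 0.0003). Klkb1 and Kng1, which circulate as a complex in plasma, had r = 0.801 and rho = 0.822 (permutation p = 1e-05 for both, adjusted p = 6e-05 and 0.00012). Of 8852 other genes, 2 had a higher r with Kng1 than Klkb1, which was the third. Ranked by r with Klkb1, Kng1 was number 41. Proc, protein C, and its cofactor Pros1 had r = 0.622 and rho = 0.61 (adjusted permutation p = 0.00027 and 0.00063). A second Proc probe had an r of -0.088 with the one used over the arrays, so this relation rests on 1 of 2 probes that disagree. Klkb1 and F11, its close relative factor XI and neighbour on chromosome 8, had r = 0.517 and rho = 0.493 (adjusted permutation p = 0.00558 and 0.00944), and r = 0.304 without the 4 arrays. Mbl1 and Mbl2, the mannose-binding lectins, had r = 0.488 and rho = 0.47 (adjusted permutation p = 0.00806 and 0.0122). The 2 ranks, second gene by r with the first and then the reverse, were 11 and 131 for C4bp and Pros1. They were 109 and 835 for Proc and Pros1, 1101 and 305 for Klkb1 and F11, and 1105 and 336 for Mbl1 and Mbl2. For Fga and Fgb they were 142 and 61, and for C8a and C8b 698 and 52. Many other genes thus followed these genes more closely than the partner did.

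The fibrinogen genes whose promoters are printed above did not all move together. Fga and Fgb had r = 0.638 and rho = 0.641 (permutation p = 7e-05 and 0.00015, adjusted p = 0.00027 and 0.0006). Fgg showed no such relation at this number of livers, with r = 0.177 to Fga (adjusted permutation p = 0.399) and r = 0.211 to Fgb (adjusted permutation p = 0.326). When chip means were removed along with group means, r was 0.611 for Fga and Fgg (adjusted permutation p = 0.00048) and 0.399 for Fgb and Fgg (adjusted permutation p = 0.0315). The chains of C8 differed too. C8a and C8b had r = 0.424 (adjusted permutation p = 0.023) and rho = 0.368 (0.0598), whereas C8a and C8g had a negative relation, r = -0.558 and rho = -0.523 (adjusted permutation p = 0.00185 and 0.00595). C8b and C8g had r = 0.053 (adjusted permutation p = 0.774). Masp1 and Masp2 had r = -0.115 (adjusted permutation p = 0.569), and r = 0.3 without the 4 arrays. Without the 2 livers farthest from the median of the first gene, r was 0.304 for C8a and C8b, and the sensitivity of the other pairs is given in the closing part.

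**Figure D5:**
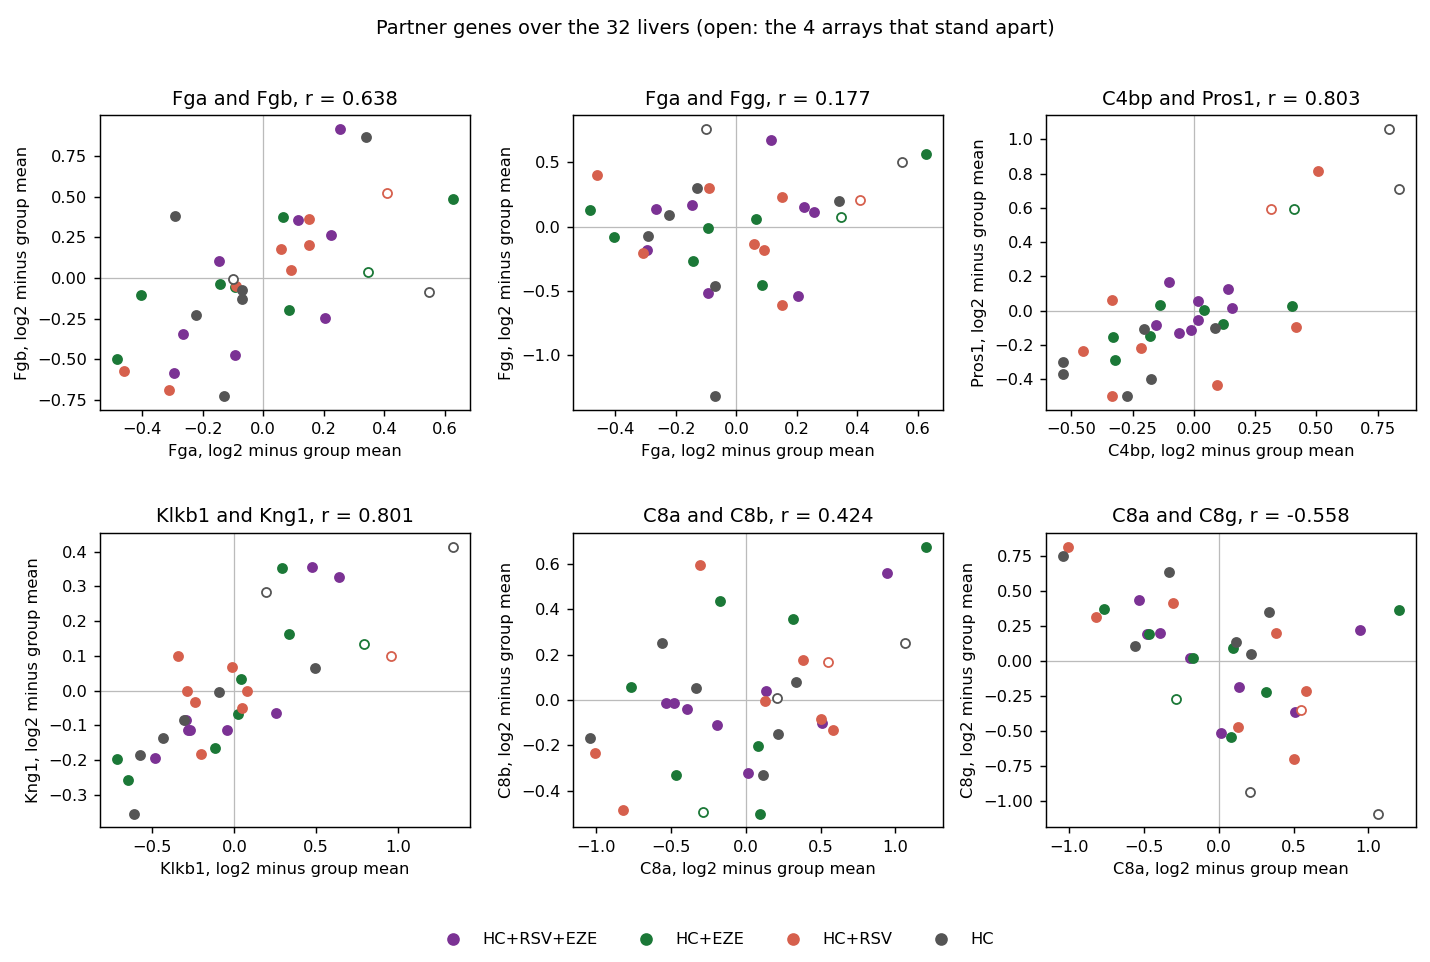
Log2 intensity minus the group mean for 6 pairs of partner genes, 1 point per liver (n = 32), coloured by group, with open circles for the 4 arrays that stood apart. Points of Fga and Fgb, of C4bp and Pros1 and of Klkb1 and Kng1 run upward, those of C8a and C8g downward, and those of Fga and Fgg show no trend.

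Each gene's nearest companion within the set was found by its r over the same 32 livers, as a description without a test, since these pairs were picked by their values and share libraries and chips. Cfb and Fgg had the highest r, 0.898, and F2 had 0.828 with Fgg; with chip means removed these were 0.558 and 0.443. C4b and Hc had 0.887, and 0.842 with chip means removed. The neighbours F7 and F10 had 0.862, and 0.712 with chip means removed. Another pair of neighbours, Cfb and C2 on chromosome 17 with 87 bases between them, had 0.405, and 0.771 with chip means removed. Mbl1, Masp2 and C8g formed a group apart, with r of 0.843 for Mbl1 and Masp2, 0.832 for Mbl1 and C8g and 0.82 for Masp2 and C8g. Without the 4 arrays these 3 values were 0.783, 0.745 and 0.748. Mbl1, Masp2 and C8g were also the only genes of the set with a negative median r to the others (-0.189, -0.317 and -0.168), and without the 4 arrays these medians were 0.107, 0.088 and 0.087. Kng1 and Plg had 0.841, and Fga and Plg 0.82.

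Of 48 other complement and coagulation genes, taken from a list of regulators, receptors and further factors outside the 41, 32 were measured. In each of the 9 comparisons 0 passed, against 0% to 0.339% of all genes. At an unadjusted p under 0.05 (limma), HC+RSV against HC had 1 above 0 and 2 below (2.68% of all genes). HC+EZE against HC+RSV had 2 above and 1 below (4.52%). HC+RSV+EZE had 2 below 0 against HC (7.46%), 2 against HC+EZE (1.71%) and 1 against HC+RSV (7.33%). Averaged, rosuvastatin had 3 below 0 (2.37%) and ezetimibe 1 (9.47%). HC+EZE against HC and the interaction had 0 (3.64% and 1.72%). Not all of these genes are named here. Vsig4 is a receptor for C3 fragments on Kupffer cells. Its difference was -0.588 ± 0.205 between HC+RSV+EZE and HC (limma, unadjusted p = 0.006962, adjusted p = 0.4793), -0.429 ± 0.205 between HC+RSV+EZE and HC+EZE (unadjusted p = 0.04374, adjusted p = 1) and -0.493 ± 0.205 between HC+RSV and HC (unadjusted p = 0.0217, adjusted p = 0.9998). The 8 measured of 13 macrophage markers, Vsig4 among them, had a mean level of 8.51 to 9.53 in HC+RSV+EZE and 8.88 to 9.56 in HC+EZE. It was 8.31 to 9.45 in HC+RSV and 8.72 to 10.31 in HC. Between HC+RSV and HC all 8 markers were below 0, with a median of -0.308. Between HC+RSV+EZE and HC 6 of the 8 were (median -0.168), and between HC+RSV+EZE and HC+EZE 7 (median -0.17). Their part in the Vsig4 differences was not tested. Vwf, von Willebrand factor of endothelial cells and platelets, differed by -0.395 ± 0.101 between HC+RSV+EZE and HC+RSV (limma, unadjusted p = 0.0004154, adjusted p = 0.1839). C1rl, a C1r-like protease, differed by -0.408 ± 0.169 between HC+RSV+EZE and HC (adjusted p = 0.581), and Cd55, a membrane inhibitor of complement, by -0.474 ± 0.179 between HC+RSV and HC (adjusted p = 0.9998). Serpina10, an inhibitor of factor Xa, differed by 0.252 ± 0.12 between HC+EZE and HC+RSV (adjusted p = 0.9993).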

How the data were processed

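Liver RNA of 32 mice, 8 in each of 4 groups assigned by the labels, was hybridised to Illumina mouse bead arrays, each liver to its own. The authors deposited each probe's intensity, not normalized between arrays; 214369 of its values lay below 0, so a background had been subtracted, by an unstated step. Each intensity was deposited with a detection value, a fraction from 0 to 1. They also deposited log2 values of 15505 of the 25697 probes, normalized with limma per the submitters' processing notes. Other samples that the labels mention are not analysed here.

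In R 4.3.3 with limma 3.58.1, the background was corrected by a normal-exponential fit guided by the detection values (offset 16), and log2 values were quantile normalized. A detection value over 0.95 on at least 8 arrays kept 12844 probes, of which 12026 had 1 gene name, 0 several and 818 none. Names came from the platform's annotation, updated by Entrez ID or accession, and the brightest probe stood for each of 8853 genes. The highest correlation between 2 arrays was 0.988, so no 2 arrays held identical values. Whether 2 arrays held the same library cannot be told from that value. A linear model of the 4 group means was fitted to all 32 arrays with lmFit and eBayes, giving 9 comparisons, each adjusted by Benjamini-Hochberg over all genes at 0.05. The number of arrays limits the precision, and p-values refer to the spread between mice together with that between arrays and chips.

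In each comparison the text names the members past the threshold, those with an unadjusted p under 0.05 and those with the highest and lowest difference, and gives single-liver levels for these and for the 3 most and 3 least variable members. Members named from the chip-blocked fit or for their chip layout were chosen after their values were seen. The members, lists, pairs and motifs were chosen with earlier results of these data known. The test of chips, the single values of the 4 arrays and the nearest companions were added after seeing the data. Alternatives covered background correction, normalization, the authors' values, probe filter and choice, chip, position and replicate number, array weights, the variance model, the groups fitted and left-out arrays. The procedure was tested on simulated data.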

Additional observations from a re-analysis of the deposited data

Results flagged for a closer look

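In 8 of 140 sets of 8 livers (35 genes in 4 groups, 5.71%), 1 liver lay farther from its nearest neighbour than Dixon's 95% criterion for 8 samples allows. Chance flags about 1 set in 20. Of these 8 livers' values, 6 came from the 4 arrays that stood apart.

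HC+RSV replicate 3 was highest in its group for Masp1, a lectin pathway protease (9.69, next liver 8.71), for Klkb1, prekallikrein (10.41, next 9.53), and for F9, factor IX (12.42, next 11.82). HC+EZE replicate 1 was lowest for Masp2, a lectin pathway protease (9.81, next 10.56), and highest for Pros1, protein S (9.6, next 9.04). HC replicate 8 was highest for C9, of the membrane attack complex (11.85, next 11.21).

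The remaining values came from arrays that did not stand apart. HC+RSV+EZE replicate 3 was highest for C8b, a chain of C8 (9.58, next 9.06), and HC+RSV+EZE replicate 4 was lowest for F11, factor XI (8.26, next 8.76).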

How the results depend on the processing

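The 38 differences and counts between groups were recomputed under 15 or 16 alternatives and with each of 32 arrays left out, and the 12 pair correlations under 4 alternatives. Of these 1859 values 1837 kept their direction and their side of the threshold or moved by less than the spread between livers (SD 0.199 for the median of the members). Many could not move, since leaving out an array of a group outside a comparison leaves its differences as they were. A move under 0.199 counted as kept for a median, and every median given above was smaller than that in size. A turned sign could thus count as kept, as from -0.085 to 0.017 for HC+RSV+EZE against HC without the 4 arrays. The count of members called stayed at 0 in all 9 comparisons except without the 4 arrays that stood apart and with chip as a fixed block, where it was 1 (Klkb1) between HC+RSV+EZE and HC+RSV. Array position nearly coincides with ezetimibe and also followed the statin. With position as a covariate, the median of the members was 0.321 for HC+RSV+EZE against HC and 0.378 for HC+EZE against HC. It was 0.078 for HC+RSV+EZE against HC+RSV and 0.179 for ezetimibe averaged over the statin. In that average Klkb1 turned to 0.913. C9 turned to -0.327 between HC+EZE and HC+RSV, while C4b differed by -0.074 and Fgg by -1.97 between HC+RSV+EZE and HC+RSV. For rosuvastatin averaged over ezetimibe, 1 member above 0 and 6 below had an unadjusted p under 0.05 (limma), beside 964 of 8853 genes. Without position it was 1 member below 0, beside 210 genes. Scaling to equal medians moved the median of all genes by up to -0.177 (HC+RSV+EZE against HC), where that of the members was -0.298, and turned Serpinc1 to -0.031 (HC+RSV+EZE against HC+EZE) and 0 (against HC+RSV); the mean of all kept probes gave -0.033 in the first case. Masp2 turned between HC+RSV+EZE and HC to -0.05 without the 4 arrays and to -0.067 with a chip block as well. The causes of these turns were not tested.

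Among the pairs, C8a and C8b lost their call without the 4 arrays (r = 0.387) and without the 2 farthest livers (0.304), as did Klkb1 and F11 without the 4 arrays (0.304). With chip means removed Fga and Fgg (0.611), Fgb and Fgg (0.399) and Masp1 and Masp2 (-0.46) passed. The sign turned for Masp1 and Masp2 without the 4 arrays (0.3), and without the 2 farthest livers for C8b and C8g (-0.0827) and Fga and Fgg (-0.00849). The pair C1r and C1s could not be computed.

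After group means were removed, same-numbered livers of different groups correlated by -0.237 to 0.765 (median 0.176), 31 of 48 pairs over 0.1. Livers of other numbers correlated by -0.642 to 0.69 (median -0.058), 126 of 336 pairs over 0.1. Same-numbered livers were thus closer, though only 7 of 32 arrays correlated best with their own number. HC+RSV and HC+EZE livers of the same number always shared a chip. What brought them closer was not tested. The numbers were not taken as pairs, and a replicate block was fitted as an alternative. With the replicate block 0 members were called in any comparison; over all genes 10 were called between HC+RSV+EZE and HC (4 without it), 16 between HC+RSV+EZE and HC+RSV (5), 5 between HC+EZE and HC+RSV (3), 53 for ezetimibe averaged over the statin (30) and 6 between HC+EZE and HC (4). C4bp differed by -0.381 between HC+RSV+EZE and HC in that fit. Over the other alternatives the genes called ranged from 0 to 119 between HC+RSV+EZE and HC+RSV, 0 to 110 for ezetimibe averaged over the statin, 0 to 20 between HC+EZE and HC+RSV, 0 to 17 between HC+RSV+EZE and HC and 0 to 10 between HC+EZE and HC. The number of livers and dim further probes, as for C9 and F11, limit the precision.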
